A study of Homo sapiens with 6 samples.

Results

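The genes described here encode the nuclear part of respiratory complex I, the NADH:ubiquinone oxidoreductase of the inner mitochondrial membrane, together with the proteins that help to build it. They are the rows of the deposited expression table whose symbol is NDUFA, NDUFB, NDUFC, NDUFS, NDUFV, NDUFAB or NDUFAF followed by a number. This rule found 46 genes among 61806 rows, of which 38 are subunits and 8 are NDUFAF assembly factors. All 46 passed the filter on low counts. One of the 38, NDUFA4, was first purified with complex I and is now assigned to complex IV, and it was kept because the rule includes it.

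RNA was sequenced from HCT116, an established human colorectal carcinoma line, after a control short interfering RNA (si-NC, genotype given as wildtype, 3 libraries) or one against STRIP2 (si-STRIP2, genotype given as STRIP2 knockdown, 3 libraries). STRIP2 belongs to STRIPAK, an assembly that joins a phosphatase to kinases. Both groups were the same cell line in the same medium, and the labels name neither the siRNA sequences nor the time after transfection. Separate cultures are not stated for the libraries, so p-values measure only the spread between these libraries, which may be technical.

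Complex I takes electrons from NADH, passes them along a flavin and a chain of iron-sulfur clusters to ubiquinone, and couples this to proton pumping. Its peripheral arm holds the N module, which oxidises NADH, and the Q module, which reduces ubiquinone. Its membrane arm holds the proton channels, whose core is encoded by the mitochondrial genome. The remaining subunits are nuclear, are imported, and are joined in modules with the help of assembly factors that are absent from the finished enzyme.

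The libraries held 17184963 to 21721218 counts. STRIP2 was at 3.19, 3.77 and 3.81 FPKM (the deposited level, scaled to exonic gene size and library total) in si-NC and at 2.71, 2.53 and 2.58 in si-STRIP2, so the targeted transcript was lower in every si-STRIP2 library but was not lost. The epithelial markers EPCAM, CDH1, KRT8, KRT18 and KRT19 summed to 664 to 718 FPKM in each library. Within that sum, 3 markers were lower and 1 higher in si-STRIP2 by the edgeR test given below, where 54.8% of all genes tested were called. The largest fall was that of CDH1, with means of 36.6 FPKM in si-NC and 24.2 in si-STRIP2. KRT19 rose, with means of 140 and 164. The leukocyte markers PTPRC, CD3E and CD68 summed to at most 0.28 FPKM, and the endothelial markers PECAM1, CDH5 and VWF to at most 0.1. The level of a transcript in these bulk libraries does not tell fewer expressing cells from less RNA per cell. Among the fibroblast markers, DCN was at 0 in every library, PDGFRB was at most 0.07 FPKM and COL1A1 was at 1.89 to 2.55 FPKM. The share of counts from the mitochondrial chromosome differed among the si-NC libraries, at 7.28%, 4.88% and 8.88%, and was 5.97%, 5.73% and 6.30% in si-STRIP2.

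Most complex I subunit transcripts were higher in si-STRIP2 cells, by modest amounts. Of 38 subunits, 25 rose and 1, NDUFS4, fell at an adjusted p under 0.05 (edgeR quasi-likelihood test, Benjamini-Hochberg adjustment over the 15687 genes tested), and 12 did not pass. The share of subunits that rose was 65.8%, where 27.8% of all genes tested rose and 54.8% were called in either direction. Of the 8 assembly factors, 4 rose, 0 fell and 4 did not pass. The median log2 fold change was 0.23 for the subunits and 0.17 for the assembly factors, beside 0.014 for all genes tested. With the further condition of a change of at least 1.2-fold, 18 subunits and 3 assembly factors rose and 0 fell, where 19.4% of all genes tested rose by that measure. By FPKM, 27 of 38 subunits (71.1%) and 4 of 8 assembly factors (50%) had groups that were fully apart, where 58.6% of all genes tested had groups that did not overlap. Whether subunits and assembly factors differed was not tested.

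**Figure D1:**
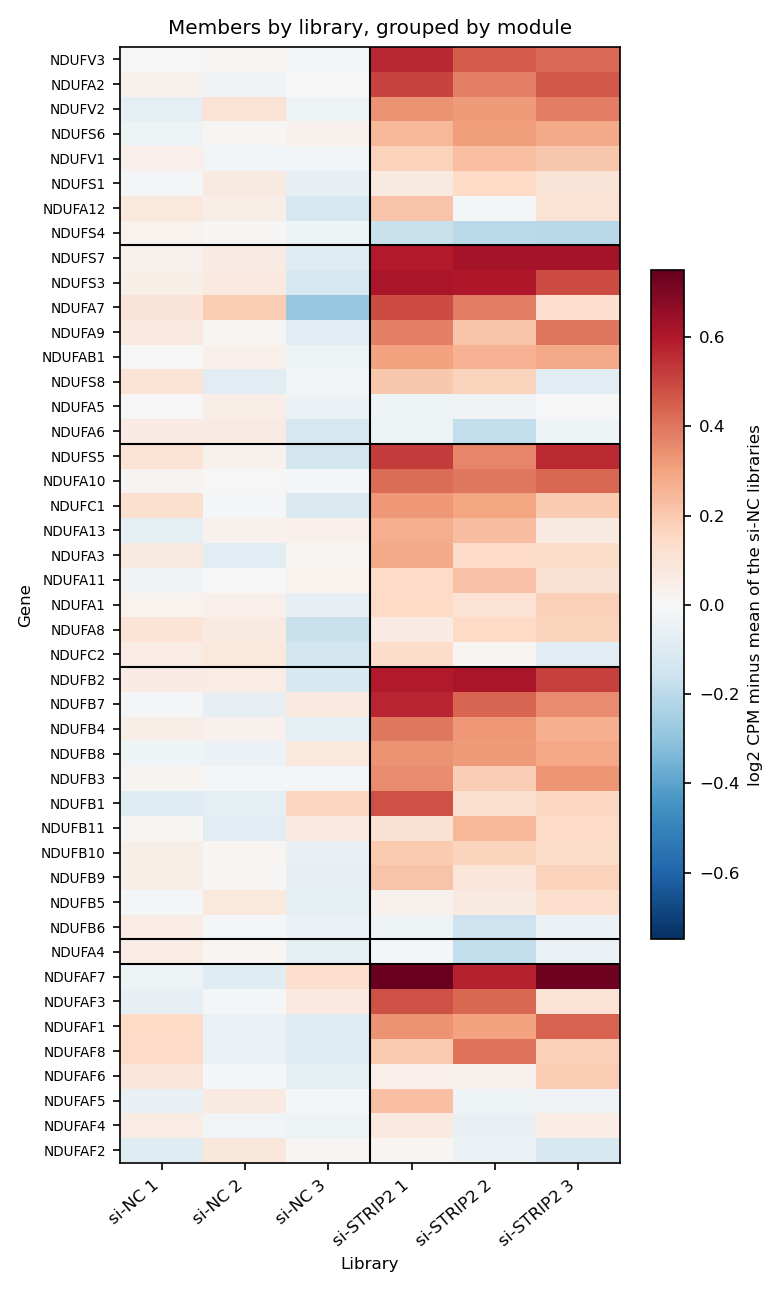
The colour gives log2 CPM of the genes shown in each library minus the mean of the 3 si-NC libraries. CPM here means counts scaled to the library total after its adjustment by the TMM factor. Genes are in rows ordered by N module, Q module, proximal membrane arm, distal membrane arm, NDUFA4 and assembly factors. The vertical line splits the groups. NDUFAF7 and NDUFS7 are above 0.57 in all 3 si-STRIP2 libraries, and NDUFS4 is the called gene that is blue in all 3.

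The rise was present in each si-STRIP2 library. The median over the subunits of log2 CPM minus the si-NC mean was 0.036, 0.015 and -0.051 in si-NC replicates 1, 2 and 3, and 0.28, 0.22 and 0.17 in si-STRIP2. For the assembly factors the same median was 0.0079, -0.018 and -0.023 in si-NC and 0.21, 0.17 and 0.14 in si-STRIP2. The si-NC library with the highest mitochondrial share, replicate 3 (8.88%), was also the lowest of its group for the subunits. The other si-NC libraries had the opposite order, since replicate 2 (4.88%) was below replicate 1 (7.28%). A link between this share and the subunits was not tested. With the mitochondrial genes left out of the totals, 23 subunits rose and 1 fell, and with si-NC replicate 3 left out, 23 rose and 3 fell (NDUFS4, NDUFA6 and NDUFA4).

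Promoters were examined because most of these genes rose and because nuclear respiratory genes are known targets of NRF1, of the ETS factor GABP and of YY1. RefSeq promoters (GRCh38.p14, 250 bases before to 50 after each start) matched 39 of the 46 genes. Members without an entry included NDUFA4, NDUFAF6, NDUFB9, NDUFB5, NDUFC2 and NDUFS5. On either strand, the NRF1 word GCGCATGC was found in 8 of the 39 genes (20.5%) and in 6.25% of the 11074 tested genes with a promoter. The YY1 word AAGATGGC was likewise found in 8 of 39 (20.5%), beside 6.36% of tested genes. The ETS word CCGGAAG was found in 7 of 39 (17.9%), beside 22.0%, and the ERR word TCAAGGTCA in 0 of 39, beside 0.244%. The NRF1 word and its reverse complement can match at places that overlap, as they did for NDUFB4, and the ETS word ends in the letters AAG with which the YY1 word begins. Windows with an NRF1 word before the start are shown for 4 genes, a pair that rose and a pair that did not pass, and an ETS window is shown for NDUFS3, with the word in capitals and the gene's strand read 5′ to 3′.
NDUFS7 (chr19:1383823-1383852, plus strand): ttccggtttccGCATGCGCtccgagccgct
NDUFS6 (chr5:1801350-1801379, plus strand): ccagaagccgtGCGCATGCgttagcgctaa
NDUFA5 (chr7:123557958-123557987, minus strand): gtatgcccatcGCGCATGCgtcaatttttc
NDUFA6 (chr22:42090920-42090949, minus strand): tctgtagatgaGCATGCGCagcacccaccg
NDUFS3 (chr11:47578980-47579009, plus strand): tccacgtccgcCCGGAAGaagatctgctgc
The NRF1 word was held by 3 of the 26 genes with a promoter that rose (NDUFS7, NDUFB4 and NDUFS6) and by 5 of the 13 others (NDUFA8, NDUFAF5, NDUFAF4, NDUFA5 and NDUFA6). The YY1 word was held by 4 of those 26 and 4 of those 13, and the ETS word by 6 and 1. A match describes letters in these windows and shows no binding.

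In the N module, 6 of 8 transcripts rose (75%, beside 27.8% of all genes tested), 1 fell and 1 did not pass. The median log2 fold change was 0.24. NDUFV3, a small accessory subunit beside the flavin site, rose the most in this module. Its FPKM was 4.20, 4.34 and 4.21 in si-NC and 6.36, 5.84 and 5.69 in si-STRIP2, so the lowest si-STRIP2 library lay above the highest si-NC library. Its fold change on the log2 scale was 0.49 (standard error 0.062, edgeR adjusted p = 3.98e-08). NDUFV3 lies on chromosome 21, 42879644 to 42913304, plus strand (GRCh38.p13, as are all gene coordinates here).

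The core of this module is NDUFV1, which binds NADH and the flavin, with NDUFV2 and NDUFS1, which carry iron-sulfur clusters. NDUFV1 was at 19.8, 19.4 and 19.2 FPKM in si-NC and at 22.2, 22.8 and 22.2 in si-STRIP2, a log2 fold change of 0.20 (standard error 0.042, edgeR adjusted p = 0.000132). NDUFV2 went from 8.12, 9.35 and 8.35 FPKM to 10.96, 10.7 and 11.1, a log2 fold change of 0.35 (standard error 0.068, edgeR adjusted p = 6.15e-05). The groups did not overlap for either gene. NDUFS1 was at 11.05, 11.9 and 10.7 FPKM in si-NC and at 11.89, 12.4 and 11.9 in si-STRIP2, so that its groups differed by very little. Its log2 fold change of 0.10 passed narrowly (edgeR adjusted p = 0.036). That call was lost under 13 of 17 alternatives, where the adjusted p ranged up to 0.309, among them the fits without si-NC replicate 1 (0.0987), si-NC replicate 3 (0.145), si-STRIP2 replicate 2 (0.162) and si-STRIP2 replicate 3 (0.0726).

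NDUFS4 was the only one of the 46 transcripts called lower. It encodes an accessory subunit that stabilises the N module and whose loss causes mitochondrial disease in humans and mice. It is on chromosome 5, 53560633 to 53683338, plus strand. Its FPKM was 50.8, 51.3 and 49.1 in si-NC and 45.4, 43.8 and 43.4 in si-STRIP2, and the si-STRIP2 libraries were all the lower ones. On the log2 scale the difference was -0.19 (standard error 0.048, edgeR adjusted p = 0.000949), a level of 0.875 of the control. It was called in each leave-one-out fit, and not by limma on log2(TPM + 1), where the adjusted p was 0.0756. The accessory subunits NDUFA2 (log2 fold change 0.45) and NDUFS6 (0.28) rose, with edgeR adjusted p-values of 5.83e-07 and 0.000242. NDUFA12, which takes the place of the assembly factor NDUFAF2 late in assembly, had a log2 fold change of 0.10 and did not pass (edgeR adjusted p = 0.195).

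**Figure D2:**
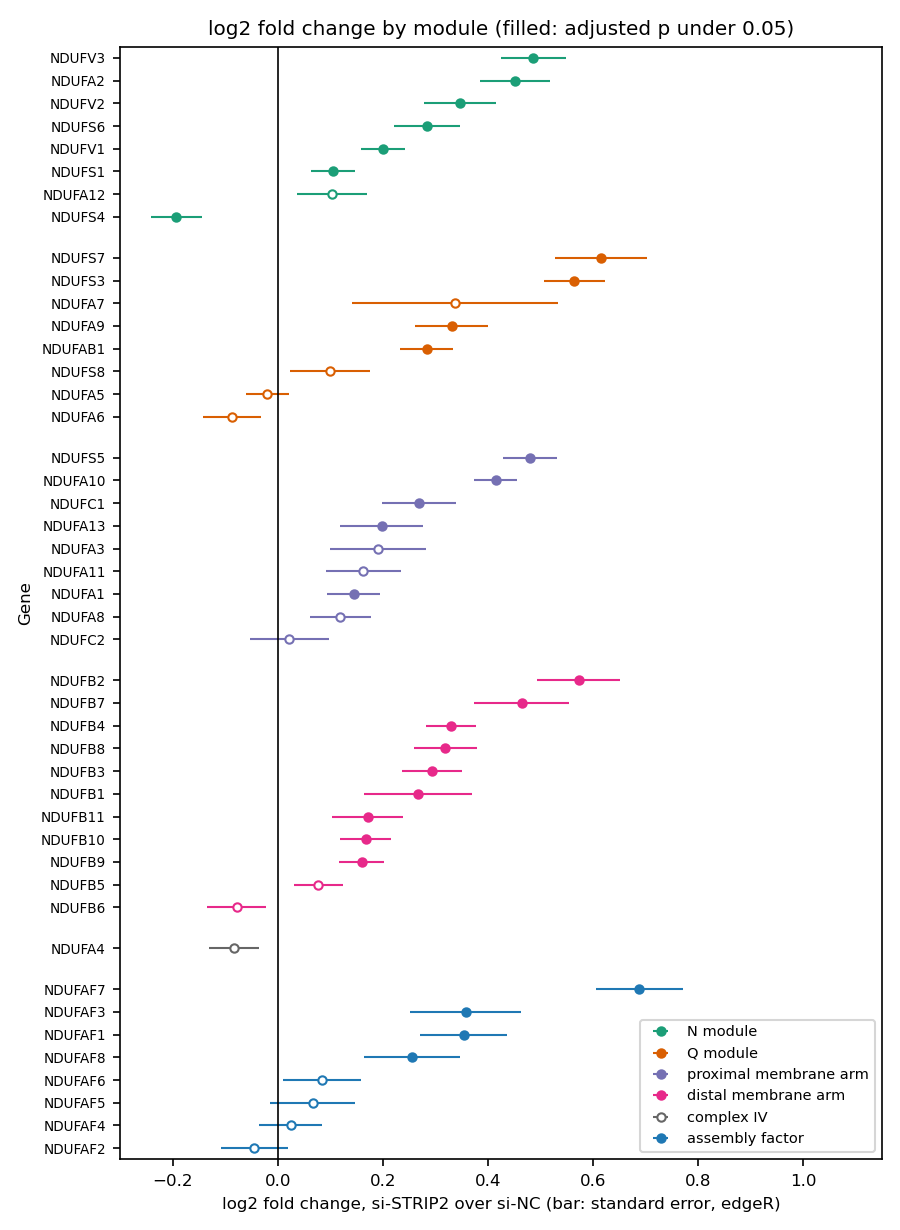
Points give the log2 fold change of si-STRIP2 over si-NC for the genes shown and bars its standard error, coloured by module, with filled points for an adjusted p under 0.05. All called points but that of NDUFS4 lie to the right of 0, and NDUFAF7 at 0.69 is the farthest.

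In the Q module, 5 of 9 transcripts rose (55.6%, beside 27.8% of all genes tested), 0 fell and 4 did not pass. The median was 0.33. The core subunits of this module, among them NDUFS3, NDUFS7 and NDUFS8, form the ubiquinone site and the path of clusters that leads to it. NDUFS7, which holds the last cluster before ubiquinone, had the largest rise of any subunit. It lies on chromosome 19, 1383527 to 1395589, plus strand, and its promoter window with the NRF1 word is printed above. Its FPKM was 1.46, 1.52 and 1.35 in si-NC and 2.21, 2.23 and 2.22 in si-STRIP2, which is 173 to 237 counts and 285 to 309 counts. This gave a log2 fold change of 0.61 (standard error 0.088, edgeR adjusted p = 3.73e-07).

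NDUFS3 (chromosome 11, 47565336 to 47584562, plus strand) was at 7.93, 8.24 and 7.10 FPKM in si-NC and at 11.96, 11.75 and 10.8 in si-STRIP2. The groups were well apart, and the log2 fold change was 0.56 (standard error 0.058, edgeR adjusted p = 3.44e-10). NDUFS8, an iron-sulfur subunit, did not pass. It was at 5.44, 4.89 and 5.03 FPKM in si-NC and at 5.95, 5.75 and 4.81 in si-STRIP2, with a log2 fold change of 0.099 (edgeR adjusted p = 0.284), and its groups overlapped. Of the 7 core subunits of both modules, 6 rose (85.7%), with a median of 0.35. Of the 30 accessory subunits of complex I, 19 rose (63.3%), with a median of 0.23, where 27.8% of all genes tested rose.

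NDUFAB1 is the mitochondrial acyl carrier protein, which also serves fatty acid and lipoate synthesis and the making of iron-sulfur clusters. It was at 27.8, 29.1 and 27.2 FPKM in si-NC and at 34.9, 33.6 and 34.0 in si-STRIP2, with no overlap. Its fold change on the log2 scale was 0.28 (standard error 0.051, edgeR adjusted p = 1.53e-05). NDUFA9 rose by 0.33 on the log2 scale (edgeR adjusted p = 0.00014). The 3 other accessory members did not pass: the log2 fold change was -0.020 for NDUFA5, -0.087 for NDUFA6 and 0.34 for NDUFA7. NDUFA7 was the shallowest of the 46, with 32 to 62 counts per library, and its standard error was 0.196. NDUFA6 would be called lower without si-NC replicate 3, at -0.15 (edgeR adjusted p = 0.0199).

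In the proximal membrane arm, 5 of 9 transcripts rose (55.6%, beside 27.8% of all genes tested), 0 fell and 4 did not pass. The median was 0.19. NDUFS5, a subunit on the intermembrane space side, was the most abundant member by deposited FPKM. It lies on chromosome 1, 39026318 to 39034636, plus strand. Its FPKM was 213, 206 and 181 in si-NC and 289.7, 257 and 293 in si-STRIP2, so the lowest si-STRIP2 library was well above the highest si-NC library. On the log2 scale the difference was 0.48 (standard error 0.051, edgeR adjusted p = 8.53e-10).

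NDUFA10 also rose (log2 fold change 0.41, edgeR adjusted p = 1.44e-10), as did NDUFC1 (0.27, edgeR adjusted p = 0.00157). The calls of NDUFA13, a subunit also known as GRIM-19, and of NDUFA1, an X-linked subunit, were weak. NDUFA13 had a log2 fold change of 0.20 (edgeR adjusted p = 0.0347) and NDUFA1 of 0.14 (edgeR adjusted p = 0.0165). The NDUFA13 call was lost without si-NC replicate 1 (adjusted p = 0.157), si-STRIP2 replicate 1 (0.151) or si-STRIP2 replicate 2 (0.0958). That of NDUFA1 was lost without si-NC replicate 3 (0.0789) or si-STRIP2 replicate 3 (0.0718). With all libraries, DESeq2 called neither gene (adjusted p = 0.109 for NDUFA13 and 0.0687 for NDUFA1). Their calls were lost under 7 and 4 of 17 alternatives. NDUFA8 (0.12, edgeR adjusted p = 0.0817) was not called, and would be without si-NC replicate 1 (0.0295), si-NC replicate 2 (0.0498) or si-STRIP2 replicate 1 (0.0468). NDUFA3 (0.19, edgeR adjusted p = 0.0755) and NDUFA11 (0.16, edgeR adjusted p = 0.051) did not pass.

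NDUFC2 was examined because a read-through gene, NDUFC2-KCTD14, covers it and could take its reads. That row held 27 counts over all libraries, 1.03% of those of NDUFC2. The genes share 431 exonic bases and the counting mode is not given, so this low count cannot show whether NDUFC2 lost reads there. NDUFC2 was at 10.58, 10.97 and 9.30 FPKM in si-NC and at 11.4, 10.36 and 9.61 in si-STRIP2. The groups overlapped, and the log2 fold change was 0.022 (standard error 0.076, edgeR adjusted p = 0.828).

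The distal membrane arm is built from the NDUFB subunits around the outer proton channels. Here 9 of 11 transcripts rose (81.8%, beside 27.8% of all genes tested), 0 fell and 2 did not pass, with a median of 0.27. NDUFB2 (chromosome 7, 140690777 to 140722790, plus strand) rose the most here. Its FPKM was 3.62, 3.68 and 3.22 in si-NC and 5.35, 5.38 and 4.97 in si-STRIP2, with no overlap. This gave a log2 fold change of 0.57 (standard error 0.078, edgeR adjusted p = 1.44e-07). NDUFB7 (0.46), NDUFB4 (0.33), NDUFB8 (0.32) and NDUFB3 (0.29) followed, with edgeR adjusted p-values of at most 4.87e-05. NDUFB10 and NDUFB9 rose by 0.17 and 0.16 on the log2 scale, less than 1.2-fold.

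The calls of NDUFB1 and NDUFB11 depended on single libraries and on the method, and were lost under 7 and 8 of 17 alternatives. With all libraries, DESeq2 gave adjusted p-values of 0.0921 for NDUFB1 and 0.103 for NDUFB11. NDUFB1 had a log2 fold change of 0.27 (edgeR adjusted p = 0.0276), and its highest value, 6.99 FPKM, was that of si-STRIP2 replicate 1. Its groups overlapped in FPKM. Without that library the log2 fold change was 0.14 (adjusted p = 0.292), and the adjusted p was 0.134 without si-NC replicate 1 and 0.0766 without si-NC replicate 2. NDUFB11 had a log2 fold change of 0.17 (edgeR adjusted p = 0.0333). Its adjusted p was 0.0743 with si-NC replicate 1 left out, 0.15 with si-NC replicate 2 left out and 0.156 with si-STRIP2 replicate 2 left out. NDUFB5 (0.077) and NDUFB6 (-0.079) did not pass, with edgeR adjusted p-values of 0.161 and 0.236.

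NDUFA4, the member now placed in complex IV, was not among the subunits that rose. It was at 26.1, 25.8 and 24.2 FPKM in si-NC and at 25.4, 22.3 and 24.3 in si-STRIP2, and its groups overlapped. Its fold change on the log2 scale was -0.084 (standard error 0.048, edgeR adjusted p = 0.137), and without si-NC replicate 3 it was -0.12 and called (edgeR adjusted p = 0.0382).

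**Figure D3:**
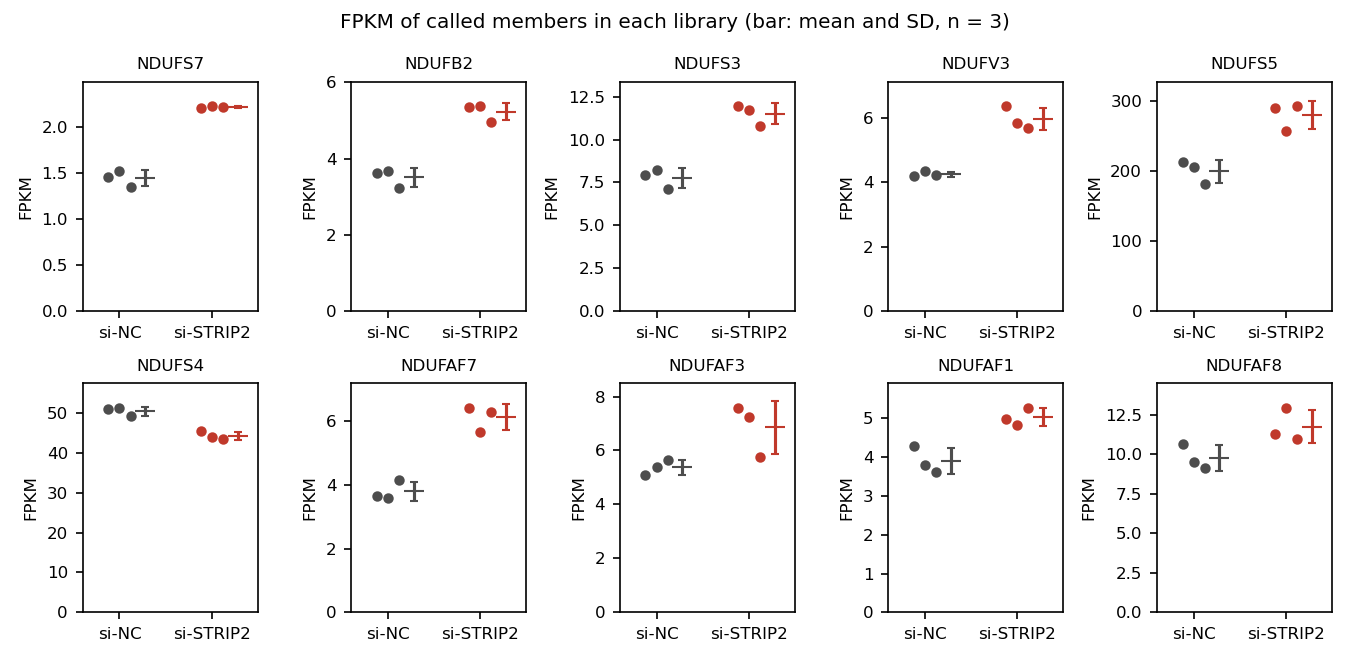
Each panel plots the FPKM of 1 gene in the 3 si-NC and 3 si-STRIP2 libraries as points, with the mean and SD (n = 3) as a bar beside them, on axes that start at 0. The groups do not overlap in any of the 10 panels, and NDUFS4 is the panel in which si-STRIP2 is the lower group.

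NDUFAF7 had the largest log2 fold change of the 46. It encodes a methyltransferase that acts early in assembly, and it lies on chromosome 2, 37231631 to 37253403, plus strand. Its FPKM was 3.66, 3.59 and 4.14 in si-NC and 6.42, 5.67 and 6.27 in si-STRIP2, so the groups were far apart. On the log2 scale the difference was 0.69 (standard error 0.083, edgeR adjusted p = 1.21e-08), and it lay between 0.57 and 0.75 under all 17 alternatives.

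NDUFAF3, which acts with NDUFAF4 in building the Q module, was at 5.09, 5.39 and 5.63 FPKM in si-NC and at 7.59, 7.25 and 5.75 in si-STRIP2. The third si-STRIP2 library was close to the highest si-NC library, and the log2 fold change was 0.36 (standard error 0.106, edgeR adjusted p = 0.00465). NDUFAF4 itself did not pass (log2 fold change 0.024, edgeR adjusted p = 0.756). NDUFAF1, a factor of the membrane arm, went from 4.28, 3.81 and 3.63 FPKM to 4.99, 4.82 and 5.28. Its groups did not overlap, and its log2 fold change was 0.35 (standard error 0.083, edgeR adjusted p = 0.000501).

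NDUFAF8, the partner of NDUFAF5, was at 10.66, 9.49 and 9.13 FPKM in si-NC and at 11.3, 12.9 and 10.97 in si-STRIP2. Its log2 fold change was 0.25 (edgeR adjusted p = 0.0188), and the groups lay close to each other. The call was lost without si-NC replicate 2 (adjusted p = 0.0608), si-NC replicate 3 (0.0753) or si-STRIP2 replicate 2 (0.139). With all libraries, DESeq2 did not call NDUFAF8 (adjusted p = 0.0644). NDUFAF5, which hydroxylates an arginine of NDUFS7, did not pass (0.066, edgeR adjusted p = 0.505). NDUFAF6 (0.083) and NDUFAF2 (-0.045) did not pass, with edgeR adjusted p-values of 0.356 and 0.566.

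A second group of complex I assembly factors carries other names. Of 13 such genes, 7 rose, 0 fell and 6 did not pass, with a median of 0.15. The share called, 53.8%, was near the 54.8% of all genes tested that were called in either direction, and 27.8% of all genes tested rose. The largest rises were those of AIFM1, the flavoprotein that supports the import of respiratory chain subunits, and FOXRED1, a flavoprotein of late assembly. AIFM1 went from 3.91, 4.13 and 3.76 FPKM to 5.01, 5.71 and 5.42, a log2 fold change of 0.45 (standard error 0.052, edgeR adjusted p = 5.67e-09). FOXRED1 went from 3.87, 3.63 and 3.73 FPKM to 5.45, 5.12 and 4.53, a log2 fold change of 0.42 (standard error 0.065, edgeR adjusted p = 1.36e-06). The groups did not overlap for either gene. The weakest of the 7 calls were TMEM186 (edgeR adjusted p = 0.0408) and TMEM70 (0.037), of which the first was lost under 10 and the second under 12 of 17 alternatives. Without si-NC replicates 1, 2 or 3 in turn, TMEM186 had an adjusted p of 0.0716, 0.0681 and 0.0896, and TMEM70 of 0.0663, 0.0623 and 0.0882. Without si-STRIP2 replicate 2 it was 0.245 for TMEM186, whose log2 fold change then was 0.15 in place of 0.23, and 0.056 for TMEM70, and the fit that left out si-STRIP2 replicate 3 gave 0.21 for TMEM70.

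The 7 subunits that the mitochondrial genome encodes did not rise. edgeR called 4 of them lower and 0 higher, with a median of -0.31, but the groups overlapped for all 7, and 27% of all genes tested fell. MT-ND1, the subunit at the ubiquinone channel, was at 3627, 2366 and 4434 FPKM in si-NC and at 2442, 2501 and 2516 in si-STRIP2. The si-NC libraries thus spread more widely than the distance between the groups, and the log2 fold change of -0.49 (edgeR adjusted p = 0.000165) was not called by DESeq2 (adjusted p = 0.0992). MT-ND5 (-0.48), MT-ND4L (-0.40) and MT-ND2 (-0.31) were likewise called by edgeR and not by DESeq2, whose adjusted p-values were 0.152, 0.0843 and 0.301. Without si-NC replicate 3, MT-ND2 was not called (-0.10, edgeR adjusted p = 0.265) and MT-ND4 was at 0.14 in place of -0.081. The MT-ND2 call was also lost without si-STRIP2 replicate 2 (adjusted p = 0.0596). The sizes of the other calls moved with the same libraries. With si-NC replicate 3 left out, the log2 fold change was -0.28 for MT-ND1, -0.26 for MT-ND4L and -0.25 for MT-ND5, and with si-NC replicate 2 left out it was -0.71, -0.58 and -0.72, and -0.52 for MT-ND2. Without si-NC replicate 2, MT-ND3 (-0.28, edgeR adjusted p = 3.02e-06), MT-ND4 (-0.29, 0.000187) and MT-ND6 (-0.37, 1.10e-07) became calls.

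Summed over genes, the 38 subunits amounted to 926, 929 and 859 FPKM in si-NC and to 1098, 1036 and 1076 in si-STRIP2, a mean of 905 ± 39.8 and of 1070.2 ± 31.8 (SD, n = 3). The si-STRIP2 mean was 118% of the si-NC mean, with no overlap between the groups. This sum leans on the most abundant gene, NDUFS5, whose own mean was 199.9 FPKM in si-NC and 279.8 in si-STRIP2. It therefore does not describe the 38 subunits evenly. The assembly factors summed to 46.7, 45.7 and 45.0 FPKM in si-NC and to 54.8, 52.95 and 51.4 in si-STRIP2, or 116% of the si-NC mean. The mitochondrially encoded subunits summed to 24588, 16500 and 29777 FPKM in si-NC and to 20087, 18860 and 20761 in si-STRIP2, and here the si-STRIP2 libraries lay within the range of the si-NC libraries.

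**Figure D4:**
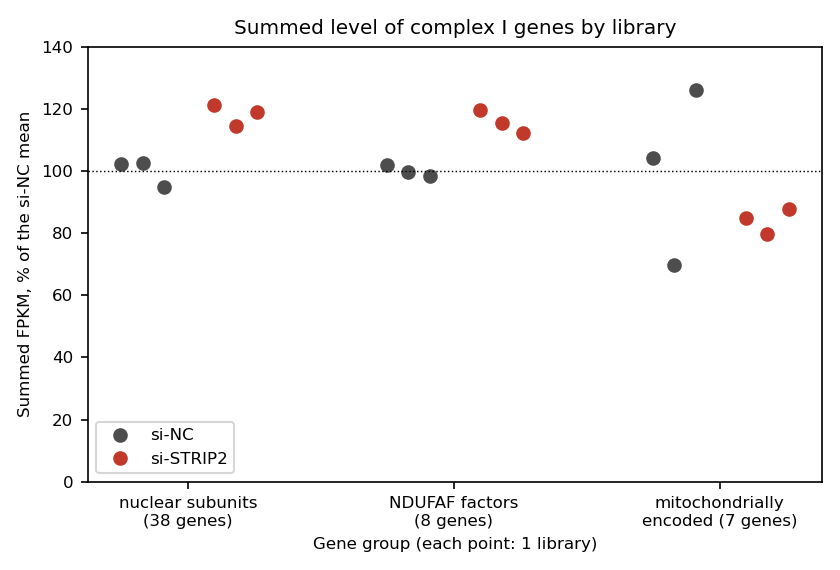
The vertical axis gives the summed FPKM of each gene group in each library as a percentage of the mean of the si-NC libraries, with 1 point per library. For the nuclear subunits and the NDUFAF factors all si-STRIP2 points (112% to 121%) are above all si-NC points, and for the mitochondrially encoded genes the si-NC points span 69.8% to 126% around them.

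The nuclear genes of the other respiratory complexes also rose in the majority. Of 41 tested genes of complexes II, III and IV and of the ATP synthase, 31 rose (75.6%) and 1 fell. By the same test 27.8% of all genes rose. The median log2 fold change was 0.29, and for complex I 25 of 38 rose, with a median of 0.23. The one that fell was SDHC, at -0.58 (edgeR adjusted p = 6.23e-13), the membrane anchor of complex II. The largest rise was that of ATP5MC1, one of the genes of the c subunit of ATP synthase, at 0.89 (edgeR adjusted p = 4.71e-17). The difference between the lists was not tested.

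Genes of transcription factors and coactivators known to act on respiratory genes were listed as well. Of 11 such genes, PPARGC1A was at 0 FPKM in every library and 10 were tested, of which 2 rose and 4 fell. The share called, 60%, was near the 54.8% of all genes tested. The coactivator gene PPARGC1B went from 1.09, 1.25 and 1.33 FPKM to 1.52, 1.65 and 1.42 (log2 fold change 0.33, edgeR adjusted p = 0.0015), and its relative PPRC1 rose by 0.24 (edgeR adjusted p = 3.20e-05). The PPARGC1B call was not made by limma on log2(FPKM + 1), where the adjusted p was 0.0603. GABPA, the DNA-binding part of GABP, went from 17.6, 18.3 and 16.2 FPKM to 13.8, 14.3 and 14.4, and its partner GABPB1 from 8.03, 8.28 and 7.86 to 6.23, 7.16 and 6.26. Both fell by 0.30 on the log2 scale (edgeR adjusted p = 1.70e-06 and 3.99e-05). NRF1 fell by 0.23 (edgeR adjusted p = 0.00341) and MYC by 0.22 (edgeR adjusted p = 1.29e-05). ESRRA (0.13), TFAM (-0.031), TFB2M (-0.12) and YY1 (-0.0046) did not pass, though TFB2M was called without si-NC replicate 3 (edgeR adjusted p = 0.0233) and ESRRA when si-STRIP2 replicate 3 was left out (0.0345).

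Some members share sequence with other genes, and whether counting used strand is not given in the sources used here. For 12 of the 46, another gene overlapped an exon (GENCODE release 29 on GRCh38) and held at least 20% as many counts, a limit chosen after the values were seen. For NDUFAF7 this was PRKD3 on the opposite strand, which held 165% as many counts and had a log2 fold change of -1.002, the other way. For NDUFB2 it was BRAF (opposite strand, 321%, -0.33) and ADCK2 (same strand, 68.1%, -0.17). For NDUFS3 it was CELF1 (opposite strand, 379%, 0.30), PTPMT1 (same strand, 46.7%, -0.20) and KBTBD4 (opposite strand, 21.2%, 0.12). The others are given with the same 2 values of the overlapping gene. They were NDUFA2 with IK (508%, 0.37) and TMCO6 (37.7%, 0.54), NDUFB8 with HIF1AN (332%, 0.50) and NDUFB11 with RBM10 (252%, 0.12). NDUFB9 was overlapped by TATDN1 (55.0%, 0.0047), NDUFB3 by FAM126B (53.2%, -0.059) and NDUFA3 by TFPT (51.8%, -0.31). NDUFA7 was overlapped by RPS28 (1287%, 0.44), NDUFA13 by YJEFN3 (113%, 0.65) and NDUFAF3 by DALRD3 (153%, 0.16). The values of these 12 are uncertain to that extent. Among the 28 subunits without such an overlap by release 29, 17 rose (60.7%) and 1 fell. Their median log2 fold change was 0.18 in place of 0.23. Among the 6 assembly factors without one, 2 rose (33.3%, near the 27.8% of all genes tested that rose), with a median of 0.075 in place of 0.17.

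Levels spanned a wide range, and their order depended on the length used. By deposited FPKM the si-NC mean ran from 1.44 ± 0.0862 for NDUFS7 to 199.86 ± 16.5 for NDUFS5 (SD, n = 3), with NDUFA1 (113.6 ± 4.78) and NDUFA8 (60.3 ± 6.01) next. The deposited exonic size was 23.3 times the length of the principal transcript of GENCODE release 29 for NDUFB9 (16591 against 711 bases) and 12.95 times for NDUFA12. It was shorter than that transcript for 5 genes, NDUFA1 (421 against 766 bases), NDUFS6, NDUFAF3, NDUFC2 and NDUFA8. Scaled in the same way to the length of the principal transcript, NDUFB9 moved from rank 24 to rank 1, at 221 in si-NC, followed by NDUFS5 (199.9) and NDUFB4 (99.1). NDUFA1 moved from rank 2 to rank 8. Fold changes between groups do not depend on this length. Across the 46 genes, the log2 fold change had a Spearman correlation of -0.27 with the si-NC FPKM. This is given as a description only, since the genes share the same 6 libraries. The si-NC level also enters the fold change itself, and the FPKM order depends on the length used.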

How the data were processed

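The authors deposited 1 table with raw counts and FPKM values per Ensembl gene for 6 libraries, per the file headers. Per the labels' protocols, poly(A) RNA was made into directional libraries. The submitters' processing notes name cutadapt 1.9.1, HISAT2 2.2.1, HTSeq 0.6.1 and GRCh38.p13. The annotation release and the counting mode are not given in the sources used here. The deposited FPKM values equal counts per exonic size and library total to within 0.005. The exonic gene sizes were used as deposited.

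Counts were tested in R 4.3.3 with edgeR 4.0.16 (filterByExpr, minimum count 10, TMM, quasi-likelihood F test, group as the only term), which left 15687 genes. A gene was called at a Benjamini-Hochberg adjusted p under 0.05. Standard errors are the absolute log2 fold change over the square root of F. Alternatives used DESeq2 1.42.0 and limma 3.58.1. In simulated counts of 15460 genes, edgeR recovered 41.5% of 65 genes changed 1.2-fold, 72.7% of 66 changed 1.5-fold and 90.5% of 63 changed 2-fold. Only these 194 genes were changed, whereas 8599 of 15687 were called in the data. An adjusted p is harder to pass where few genes change, so these shares do not measure recovery in the real comparison.

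No pair of libraries in a group agreed within sampling noise. The chi-square per degree of freedom was 4.96 to 16.9 between si-NC libraries and 2.15 to 2.28 between si-STRIP2 libraries. The si-NC libraries thus differed more by this measure. It includes the genes of the mitochondrial chromosome, whose share also differed more among the si-NC libraries, and was not computed without them. The members and lists were chosen with earlier results of these data known. Values per library are given for STRIP2, the 5 largest rises and the falls among called subunits, called NDUFAF factors, the core subunits, NDUFA4, NDUFAB1, NDUFC2 and, in other lists, the largest changes. For the mitochondrial genes and the list of transcription factors, the genes shown were chosen after their values were seen. One member is counted in the totals, lists and medians but its own values are not reported here.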

Additional observations from a re-analysis of the deposited data

How the results depend on the processing

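Results were recomputed under 17 alternatives. Of the 30 members called, 21 were called in every one, 9 lost the call in at least 1, and 0 changed direction. Of the 16 others, 5 gained a call in at least 1. Over the alternatives other than leaving out a library, 18 to 27 subunits were called, fewest by limma on log2(TPM + 1) and most with library totals only, and 3 to 4 assembly factors. DESeq2 called 21 subunits. Limma on log2(TPM + 1) called 5281 genes in all, against 8599, and the cause was not tested.

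Leaving out each library in turn gave 7690 to 8494 called genes, 26 to 29 members, 23 to 26 subunits and 3 to 4 assembly factors. The median of the subunits ranged from 0.21 to 0.26 and that of the assembly factors from 0.13 to 0.23. Some log2 fold changes that were not called changed sign in at least 1 of these fits, with ranges of -0.044 to 0.0017 for NDUFA5, -0.044 to 0.073 for NDUFC2, -0.026 to 0.11 for NDUFAF5, -0.088 to 0.011 for TMEM126A, -0.070 to 0.0048 for COA1, -0.054 to 0.0019 for DMAC2, -0.28 to 0.030 for MT-ND3, -0.29 to 0.14 for MT-ND4, -0.37 to 0.093 for MT-ND6 and -0.038 to 0.036 for YY1. YY1 was at 0.0049 by limma on log2(TPM + 1).

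The labels number the libraries 1 to 3 in both groups, but same-numbered libraries did not deviate together (correlations of -0.086, -0.013 and -0.072). With the replicate block, 8293 genes, 29 members, 25 subunits and 4 assembly factors were called, with medians of 0.23 and 0.17. How depth limits these calls was not tested.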

Other observations

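The table holds 69 further rows with NDUF in their symbol, which are pseudogenes, antisense, divergent and read-through transcripts and the paralog NDUFA4L2. Of these, 43 had 0 counts in every library and 5 passed the filter on low counts. NDUFV2P1, a pseudogene of NDUFV2, had 17, 14 and 12 counts in si-NC and 32, 25 and 21 in si-STRIP2, with a log2 fold change of 0.92 (standard error 0.288, edgeR adjusted p = 0.00723). It held 4.18% as many counts as NDUFV2, which also rose. One alternative added all pseudogene and read-through rows to their members at once, and 30 members were called. NDUFV2 was called under all 17 alternatives, with a log2 fold change of 0.31 to 0.40. NDUFA4L2, which encodes a paralog of NDUFA4 known as a hypoxia-induced gene, had 30, 29 and 25 counts in si-NC and 21, 20 and 22 in si-STRIP2. Its log2 fold change of -0.35 did not pass (edgeR adjusted p = 0.263).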
